A study of Mus musculus with 12 samples.

Results

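The genes described here are 34 markers of myelin and of mature oligodendrocytes, taken by name from the 53465 genes counted in each library. The rule uses names only, though the list was drawn up with earlier results of these data known. The RNA came from spinal cord cells of C57BL/6 mice at postnatal day 7. All mice carried 2 reporters, Aldh1L1-GFP and Olig2-tdTomato. Aldh1L1 is an enzyme of astrocytes, and Olig2 is a transcription factor that specifies oligodendrocytes and is also made by some spinal astrocytes. Brachial and thoracic cord was digested with papain, and fluorescence-activated cell sorting gave 3 fractions, named eGFP, tdTomato and eGFP/tdTomato after the reporters they carried. Each fraction has 4 libraries, labelled as biological replicates 1, 2, 3 and 5. The labels give neither the sorting gates nor the number of animals in a library, so a p-value here reflects how far these libraries differ from each other, which may in part be technical.

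Oligodendrocytes wrap axons of the central nervous system in myelin, a compacted stack of cell membrane rich in galactolipids and in a small set of abundant proteins. Their progenitors switch these genes on as they differentiate, and in the mouse spinal cord myelin is laid down during the first weeks after birth. Astrocytes do not make myelin, though several enzymes and stress proteins that serve as oligodendrocyte markers are also known from astrocytes. In bulk RNA, fewer cells of a type and less RNA per cell cannot be told apart.

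All 34 genes were found in the files, all are protein-coding, and all passed the filter on low counts. Total gene counts lay between 12564767 and 36505583 per library. The share of the reads listed in a file that fell outside genes ran from 21.2 to 57.1%, and eGFP replicate 1 stood apart with both the lowest gene count and the highest share outside genes. The summed level of 16 astrocyte genes was 36990 to 56706 CPM (counts relative to the library total, after scaling by the trimmed mean of M values) in the eGFP libraries and 51974 to 60815 in the eGFP/tdTomato libraries. In the tdTomato libraries the same sum was 285 to 412 CPM. Exons of 6 of the 34 genes share at least 10% of their bases with another gene. The largest overlaps were those of Trf, with 63.5% shared with Gm20425 on the same strand, and Pllp, with 54.2% shared with Gm45767 on the opposite strand. Reads in the shared bases of Trf and Evi2a, whose neighbours lie on the same strand, cannot be assigned by strand. Those of Pllp, Plekhh1, Qdpr and Cryab could be, but whether reads were counted by strand is not given in the sources used here, so the levels of these 6 genes are less certain.

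RefSeq start sites were matched for 26 of the 34 genes in the GRCm38.p6 table. The 4 stretches below are the 250 bases before such a start, shown because Mag, Mog and Cnp are myelin proteins whose upstream bases hold the letters bound by MYRF, the transcription factor that switches on myelin genes, whereas those of Cldn11 do not. Capitals mark MYRF letters (CTGGCAC or CTGGTAC) and SOX letters (ACAAAG or ACAATG), on either strand. No marked stretch of one kind overlaps the other.
Mag (chr7:30914864-30915113, minus strand): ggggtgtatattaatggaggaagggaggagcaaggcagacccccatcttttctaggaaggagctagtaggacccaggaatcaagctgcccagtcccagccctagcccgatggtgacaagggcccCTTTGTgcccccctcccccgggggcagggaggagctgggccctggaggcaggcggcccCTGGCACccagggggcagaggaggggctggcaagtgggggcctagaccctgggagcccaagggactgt
Mog (chr17:37023399-37023648, minus strand): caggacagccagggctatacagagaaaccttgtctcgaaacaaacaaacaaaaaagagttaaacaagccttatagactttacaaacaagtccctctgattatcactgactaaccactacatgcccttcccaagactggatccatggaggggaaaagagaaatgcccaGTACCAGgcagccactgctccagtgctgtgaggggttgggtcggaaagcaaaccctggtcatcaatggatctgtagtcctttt
Cnp (chr11:100574689-100574938, plus strand): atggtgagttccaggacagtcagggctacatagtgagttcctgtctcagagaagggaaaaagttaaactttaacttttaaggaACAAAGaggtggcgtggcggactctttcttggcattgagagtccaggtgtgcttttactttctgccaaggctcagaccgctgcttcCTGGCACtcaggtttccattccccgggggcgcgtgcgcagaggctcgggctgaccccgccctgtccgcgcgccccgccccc
Cldn11 (chr3:31149670-31149919, plus strand): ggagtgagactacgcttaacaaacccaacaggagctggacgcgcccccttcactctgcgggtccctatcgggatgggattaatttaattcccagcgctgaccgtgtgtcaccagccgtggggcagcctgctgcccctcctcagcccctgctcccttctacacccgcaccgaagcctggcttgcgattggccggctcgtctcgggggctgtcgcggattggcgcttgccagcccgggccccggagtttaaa
The MYRF letters began at position -68 before the start of Mag, -83 before that of Mog and -81 before that of Cnp. In windows of 300 bases, from 250 before to 50 after a start, they occurred in 6 of the 26 genes (23.1%), namely Cnp, Gamt, Mag, Mog, Opalin and Tmem125, and in 8.10% of all 27025 genes with a window. SOX letters occurred in 10 of the 26 (38.5%) and in 31.7% of all genes. The E-box CAGCTG occurred in 3 of the 26 (11.5%) and in 18.3% of all genes. Such a match describes letters only, not binding.

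The myelin genes were abundant in the tdTomato fraction and low in both fractions with eGFP. Together the 34 genes took 6.95 to 9.84% of all gene counts in the tdTomato libraries, 0.323 to 0.432% in the eGFP/tdTomato libraries and 0.174 to 0.242% in the eGFP libraries. In summed CPM that was 76303 to 126874, 3098 to 4442 and 1216 to 2543, with no overlap between fractions. Thus the sums of the double-reporter libraries all lay above those of the eGFP libraries, and far below those of the tdTomato libraries. In the eGFP-bearing fractions these sums rest largely on a few genes. Car2 and Plekhb1, exceptions described below, averaged 460 and 225 CPM in eGFP and 958 and 428 CPM with both reporters. The myelin genes Mbp and Cnp averaged 200 and 412 CPM in eGFP and 702 and 608 CPM with both reporters. The sums there averaged 1906 and 3793 CPM. Within the tdTomato fraction, replicate 3 was the highest library for 31 of the 34 genes. It also had the smallest scaling factor of the 12 libraries (0.776) and the smallest share of reads outside genes, and the part of these in its levels was not tested.

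**Figure D1:**
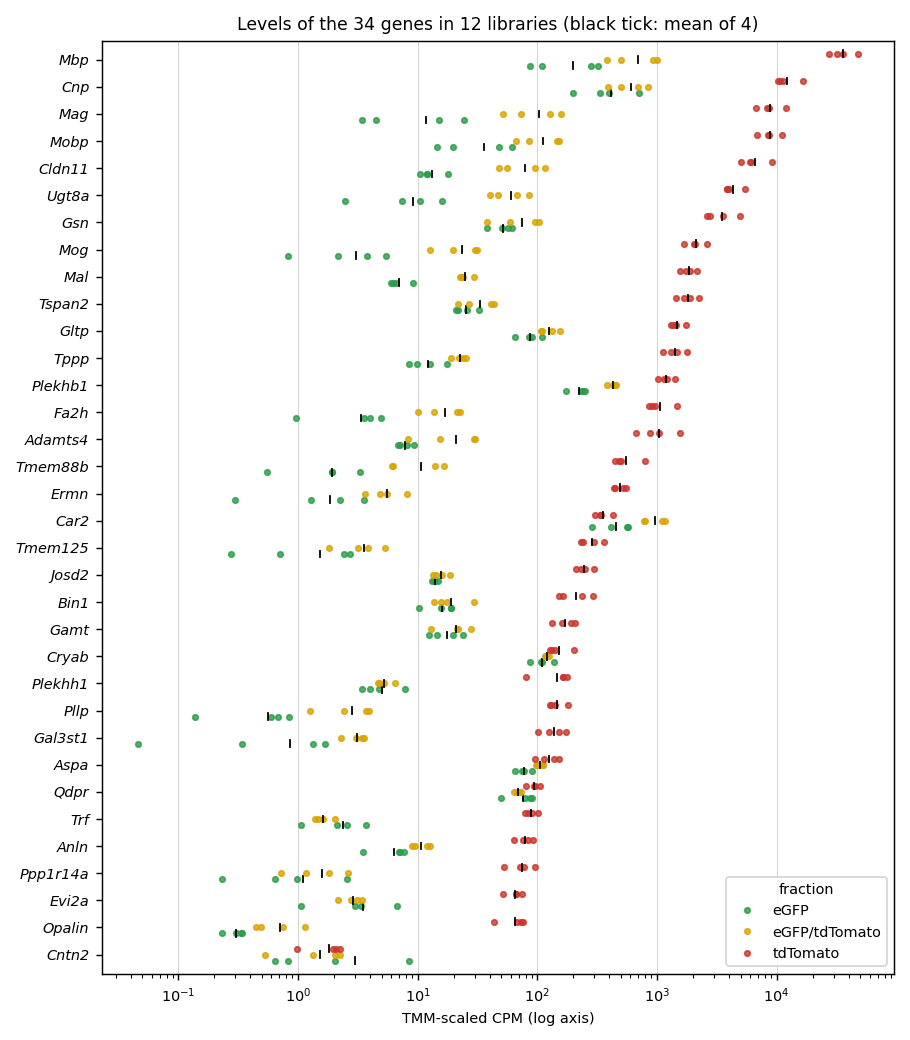
Level of each of the 34 genes in each of the 12 libraries, in TMM-scaled CPM on a log axis, with a point per library coloured by fraction and a black tick at the mean of 4 libraries. For 31 genes every tdTomato point lies to the right of every eGFP/tdTomato point, while Cntn2, Aspa and Car2 do not follow this order.

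The 3 comparisons of fractions were tested in a single fit over all 12 libraries and 29361 genes, with edgeR's quasi-likelihood test and Benjamini-Hochberg adjustment. A gene counts as called at an adjusted p under 0.05. Between tdTomato and eGFP, 30 of the 34 genes were higher in tdTomato and 0 were lower, where 14.9% of all genes tested were called higher and 20.4% lower. No member was lower at an unadjusted p under 0.05 either. DESeq2 called 31 higher and 0 lower, beside 5354 higher and 7834 lower of 36939 genes. Between eGFP/tdTomato and tdTomato, 29 were lower with both reporters, against 12.4% of all genes, and 1, Car2, was higher, against 16.8% of all genes. Between eGFP/tdTomato and eGFP, 12 were higher with both reporters, against 0.814% of all genes, and 0 were lower, against 1.67%. At an unadjusted p under 0.05, 21 were higher and 0 lower, a count for which no share of all genes is given here. DESeq2 called 16 higher and 0 lower, beside 546 higher and 979 lower of 19722 genes. Each fraction enters 2 of these comparisons, so they are not independent of each other.

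The background shares rise when the genes tested are restricted to protein-coding genes with a mean of at least 1 CPM. There 2.68% of 14898 genes were higher in eGFP/tdTomato than in eGFP, beside 14 of the 34 members, and 4.96% were lower, beside 0 members. In that set 29.4% of genes were higher and 30.4% lower in tdTomato than in eGFP, beside 31 and 0 members, and 27.7% were lower in eGFP/tdTomato than in tdTomato, also beside 31. The median log2 fold change of the 34 genes was 6.14 for tdTomato over eGFP, -5.60 for eGFP/tdTomato over tdTomato and 0.91 for eGFP/tdTomato over eGFP. Over all genes tested these medians were -0.79, 0.70 and -0.02. Over all alternatives, single libraries left out included, the all-gene medians ran from -1.15 to -0.08, from 0.05 to 0.97 and from -0.27 to 0.06, and the share of all calls that were higher ran from 29.8 to 53.1%, from 43.5 to 61.6% and from 20.6 to 47.1%.

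The counts called in each group of members below stand beside the same shares of all genes tested as above. The membrane and adhesion proteins of myelin formed the largest group, with 14 genes. Of these, 13 were higher in tdTomato than in eGFP, 13 were lower in eGFP/tdTomato than in tdTomato and 8 were higher in eGFP/tdTomato than in eGFP. Cntn2 was the member without a call in any comparison. Per kilobase of exon, the most abundant of the group in the tdTomato fraction were Mbp with 4245 CPM per kilobase, Cldn11 with 3525 and Cnp with 3356. Mag followed with 2185.

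Mbp, a basic protein that holds the cytoplasmic faces of the myelin membrane together, was at 86.4, 109, 325 and 279.9 CPM in eGFP replicates 1, 2, 3 and 5, an order kept for all values below. It was at 381, 497, 999 and 931 CPM with both reporters and at 35996, 27476, 48289 and 32059.7 CPM in the tdTomato fraction. The fractions did not overlap, and in each of the eGFP-bearing fractions replicates 3 and 5 were the higher pair. Mbp rose 3.51-fold from eGFP to eGFP/tdTomato (log2 fold change 1.81 ± 0.42, SE, adjusted p = 0.0313, edgeR) and was 51.2-fold lower with both reporters than in tdTomato (adjusted p = 2.92e-07). The first of these calls was lost without any of 6 single libraries (adjusted p up to 0.12). It was also lost with only the 2 groups in the fit (adjusted p = 0.0663) and without the 3 libraries numbered 5 (0.19).

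Cldn11, the claudin of tight junctions between myelin layers, was at 10.5, 12.1, 17.9 and 12.1 CPM in the eGFP libraries, 47.6, 56, 116 and 96.1 CPM with both reporters and 6058, 5056, 9173 and 6078 CPM in tdTomato. No fractions overlapped, and the 4 eGFP libraries lay close together. Its rise from eGFP to eGFP/tdTomato was 6.0-fold (2.58 ± 0.31, adjusted p = 0.000200, edgeR), and it was 83.5-fold lower than in tdTomato (adjusted p = 3.21e-09).

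Cnp, a cyclic nucleotide phosphodiesterase of uncompacted myelin, had the highest eGFP level per kilobase of the 3, 113 CPM against 23.6 for Mbp and 7.03 for Cldn11. It was at 199.6, 333, 715 and 401 CPM in the eGFP libraries, 392, 502, 838 and 700.2 CPM with both reporters and 10670.4, 10292, 16558 and 11335 CPM in tdTomato. The ranges of eGFP and eGFP/tdTomato overlapped, and the difference between them was not called (0.56 ± 0.34 on the log2 scale, adjusted p = 0.734, edgeR). Against tdTomato, Cnp was 20.1-fold lower with both reporters (adjusted p = 3.34e-07), a smaller ratio than that of Cldn11.

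Mag and Mog, named here after their values were seen, had the largest differences between the 2 eGFP-bearing fractions among the 34 genes. Mag (ENSMUSG00000036634, GRCm38 chromosome 7, 30899176 to 30914873, minus strand), an adhesion protein of the myelin layer facing the axon, was at 4.46, 3.42, 24.2 and 15.2 CPM in the eGFP libraries, 51.4, 73.5, 158 and 129 CPM with both reporters and 8581, 6735, 11946 and 8325 CPM in tdTomato. Mog, a glycoprotein of the outermost myelin surface, was at 2.17, 0.831, 3.8 and 5.43 CPM in eGFP, 19.6, 12.7, 31.4 and 30.1 CPM with both reporters and 2092, 1695, 2605 and 2031 CPM in tdTomato. Neither gene overlapped between any 2 fractions, and replicates 3 and 5 were the higher pair for both genes in both eGFP-bearing fractions. Without the 3 libraries numbered 5, Mag was no longer called between these fractions (log2 fold change 3.13, adjusted p = 0.071) and Mog was.

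Of the other members of the group, Mal, a proteolipid of membrane rafts, rose 3.53-fold from eGFP to eGFP/tdTomato (1.82 ± 0.19, adjusted p = 8.44e-05, edgeR), from 6.05 to 9.21 CPM over the eGFP libraries to 22.8 to 29.6 CPM. Pllp, a related proteolipid, and Tmem88b, a membrane protein, rose 5.0-fold and 5.63-fold, and both calls were lost without the 3 libraries numbered 5 (adjusted p = 0.0781 and 0.0988). Pllp was also lost with only the 2 groups in the fit (adjusted p = 0.129). Mobp, a protein of compact myelin, rose 3.13-fold (adjusted p = 0.0438), a call lost without any of 9 single libraries (adjusted p up to 0.155). Mobp was also lost with only the 2 groups in the fit (adjusted p = 0.0898) and without the 3 libraries numbered 5 (0.259).

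Opalin, a transmembrane glycoprotein of mature oligodendrocytes, was at 0.334, 0.231, 0.339 and 0.302 CPM in the eGFP libraries, 0.443, 0.758, 0.49 and 1.15 CPM with both reporters and 72.7, 43.5, 75.5 and 68 CPM in tdTomato. It was 91.2-fold lower with both reporters than in tdTomato, the largest such ratio of the 34 genes (adjusted p = 1.01e-09, edgeR). The eGFP and eGFP/tdTomato ranges did not overlap, and the difference was not called (1.22 ± 0.36 on the log2 scale, adjusted p = 0.115).

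Tspan2, a tetraspanin, and Evi2a, a transmembrane protein, showed no call between the eGFP-bearing fractions. Tspan2 was at 21.8, 25.9, 32.4 and 21.2 CPM in eGFP, 21.7, 26.8, 43.5 and 41.5 CPM with both reporters and 1893, 1433, 2244 and 1687 CPM in tdTomato. Evi2a was at 1.06, 3.37, 3.01 and 6.68 CPM in eGFP, 3.41, 2.79, 3.13 and 2.19 CPM with both reporters and 66.9, 51.9, 75 and 67 CPM in tdTomato, so for both genes the eGFP-bearing fractions overlapped. The last of the group, Tmem125, was 80-fold lower with both reporters than in tdTomato and likewise overlapped between the other fractions.

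Among the 5 lipid genes, 4 of galactolipid synthesis and glycolipid transport and Aspa, which supplies acetate, 5 were higher in tdTomato than in eGFP, 4 were lower in eGFP/tdTomato than in tdTomato and 2, Ugt8a and Fa2h, were higher in eGFP/tdTomato than in eGFP. Ugt8a, the transferase that makes galactosylceramide, was at 7.36, 2.49, 10.6 and 16 CPM in eGFP, 40.3, 47.3, 85 and 68.4 CPM with both reporters and 3888, 3839, 5430.3 and 4006 CPM in tdTomato. It rose 6.58-fold from eGFP to eGFP/tdTomato (2.72 ± 0.42, adjusted p = 0.00172, edgeR). Fa2h, which hydroxylates the fatty acids of these lipids, was at 3.57, 0.97, 4.03 and 4.94 CPM in eGFP, 10.1, 13.6, 21.3 and 22.9 CPM with both reporters and 867, 909.8, 1459 and 972 CPM in tdTomato, and rose 4.99-fold (adjusted p = 0.00331). Neither gene overlapped between fractions, and both calls held in every alternative run.

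Gal3st1, which adds the sulfate of sulfatide, was not called between the eGFP-bearing fractions (1.85 ± 0.51 on the log2 scale, adjusted p = 0.0772, edgeR), while DESeq2 called it (adjusted p = 0.00724). Its ranges there did not overlap, with 0.046 to 1.70 CPM in eGFP and 2.31 to 3.59 CPM with both reporters. Gltp, a glycolipid transfer protein, was at 65.4, 90.3, 109 and 85.9 CPM in eGFP, 111, 108, 154 and 132 CPM with both reporters and 1448, 1375, 1759.8 and 1310.0 CPM in tdTomato. Per kilobase of exon its eGFP level was 49.7 CPM, against 2.01 for Ugt8a, 1.12 for Fa2h and 0.419 for Gal3st1, and its eGFP-bearing fractions overlapped.

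All 8 genes of the cytoskeleton and of membrane shape were higher in tdTomato than in eGFP and lower in eGFP/tdTomato than in tdTomato. Only Plekhb1 of the 8 was called between the eGFP-bearing fractions. Gsn, the actin-severing protein gelsolin, was at 38.2, 51.2, 61.9 and 57 CPM in eGFP, 37.9, 58.7, 104 and 95.1 CPM with both reporters and 2764, 2603, 4992 and 3590.0 CPM in tdTomato. Its lowest eGFP/tdTomato library, replicate 1, lay just below its lowest eGFP library. Tppp, which promotes tubulin polymerisation, was at 8.53, 9.97, 12.7 and 17.7 CPM in eGFP, 19.2, 22.3, 24.1 and 25.5 CPM with both reporters and 1128, 1468, 1788 and 1322 CPM in tdTomato. Tppp did not overlap between fractions and lay just outside the threshold between the eGFP-bearing ones (0.89 ± 0.23, adjusted p = 0.054, edgeR), while DESeq2 called it (adjusted p = 0.00475).

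Anln, the scaffold protein anillin, was at 6.97, 7.11, 3.5 and 7.77 CPM in eGFP, 8.93, 12, 9.45 and 12.6 CPM with both reporters and 76, 63.7, 92.4 and 84.5 CPM in tdTomato. Plekhh1, a protein with lipid-binding domains, was at 7.86, 4.8, 3.42 and 4.0 CPM in eGFP, 4.74, 6.46, 4.63 and 5.26 CPM with both reporters and 163, 80.7, 176 and 164 CPM in tdTomato. Anln did not overlap between fractions, while Plekhh1 overlapped between the eGFP-bearing ones and its tdTomato replicate 2 lay apart from the other 3. Ermn, an actin-binding protein of oligodendrocytes, Ppp1r14a, an inhibitor of myosin phosphatase, and Bin1, which bends membranes, were 88.5-fold, 46.9-fold and 11.1-fold lower with both reporters than in tdTomato. Ermn did not overlap between the eGFP-bearing fractions (0.30 to 3.58 CPM in eGFP, 3.65 to 8.15 CPM with both reporters). Its difference there was not called (1.57 ± 0.45, adjusted p = 0.0996, edgeR), while DESeq2 called it (adjusted p = 0.0148).

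The 7 remaining genes act in metabolism, iron transport, protein folding and protein turnover, and they divided. Trf, Adamts4, Gamt and Josd2 were higher in tdTomato than in eGFP and lower in eGFP/tdTomato than in tdTomato. Car2, Qdpr and Cryab were not called between tdTomato and eGFP. Trf, the iron carrier transferrin, was at 2.56, 2.12, 1.05 and 3.73 CPM in eGFP, 1.47, 1.4, 2.03 and 1.63 CPM with both reporters and 78.6, 102, 89.7 and 84.4 CPM in tdTomato, so its eGFP-bearing fractions overlapped at a low level. Adamts4, a secreted metalloprotease, was at 7.13, 6.83, 9.37 and 8.19 CPM in eGFP, 8.32, 15.5, 30.3 and 29.7 CPM with both reporters and 880.2, 675, 1575 and 1044 CPM in tdTomato. The double-reporter replicate 1 of Adamts4 lay within the eGFP range while replicates 3 and 5 were more than 3 times its highest value, and the difference just missed the threshold (1.41 ± 0.36, adjusted p = 0.0531, edgeR), while DESeq2 called it (adjusted p = 0.00321). Josd2, a deubiquitinase, was 15.8-fold lower with both reporters than in tdTomato.

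**Figure D2:**
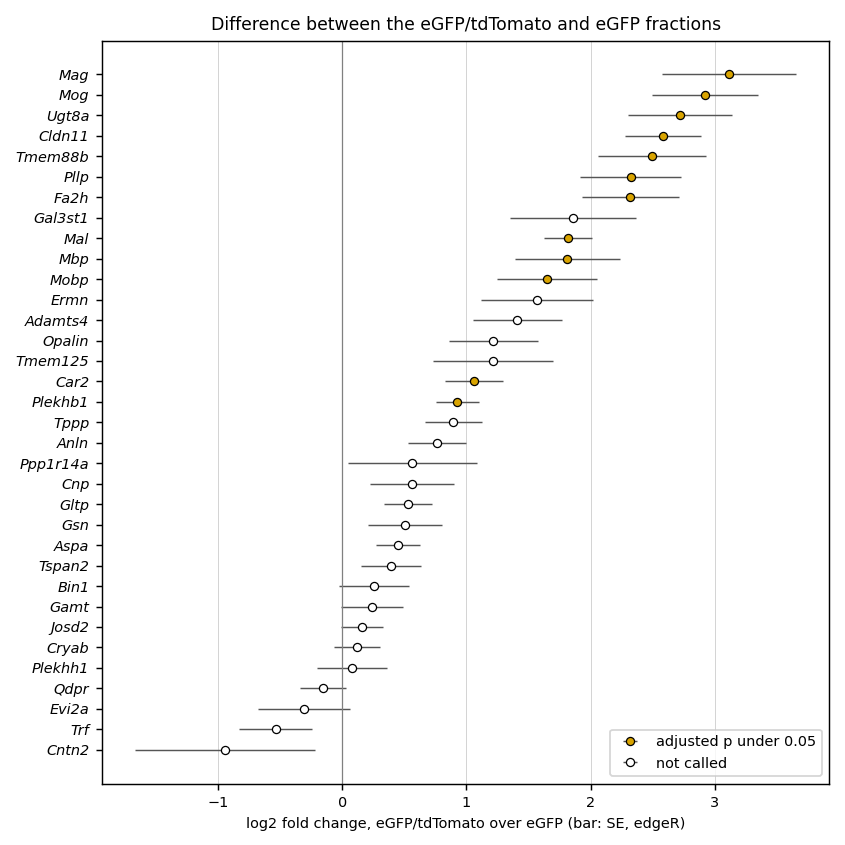
Log2 fold change of each of the 34 genes between the eGFP/tdTomato and eGFP fractions, with bars of 1 SE from edgeR and filled points for adjusted p under 0.05. The 12 filled points run from 0.93 for Plekhb1 to 3.11 for Mag, and all 4 points below 0 are open.

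Of the 12 genes called between the eGFP-bearing fractions, 5 (Mog, Ugt8a, Cldn11, Fa2h and Mal) were called under every alternative run, and 8 were called whichever single library was left out. Every eGFP/tdTomato library lay above every eGFP library for 18 of the 34 genes, against 3.75% of all genes tested. The reverse held for 0 of the 34, against 4.18% of all genes. The number called fell to 9 without eGFP replicate 1, the library that stood apart, to 8 without eGFP/tdTomato replicate 3 and to 5 without the 3 libraries numbered 5. Over all genes tested, the number called higher fell as well. It was 239 of 29361 in the main fit and 193 of 30075, 103 of 31534 and 60 of 29418 in these fits, in the same order. By contrast, all 30 calls between eGFP/tdTomato and tdTomato held in every alternative, and 29 of the 30 between tdTomato and eGFP did. The exception was Aspa (adjusted p = 0.0678 with scaling by library size alone and 0.0535 without the libraries numbered 5). Every eGFP/tdTomato library lay below every tdTomato library for 31 genes, against 14.8% of all genes, and every tdTomato library lay above every eGFP library for 30 genes, against 14.3%.

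To place the double-reporter level between the single-reporter levels, a share was computed for each gene as the distance of the mean eGFP/tdTomato CPM from the mean eGFP CPM, in percent of the distance from eGFP to tdTomato. It was computed for the 29 genes whose tdTomato mean was at least 4 times the eGFP mean. The median share was 1.00%, with quartiles of 0.70 and 1.58%. Of the 29 genes, 27 had a share above 0, 14 lay under 1%, 11 between 1 and 2%, 2 between 2 and 5% and 2 above 5%. On the scale of log2(CPM + 0.5) the median share was 17.3%, since that scale weighs fold changes at low levels as it does those at high levels.

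**Figure D3:**
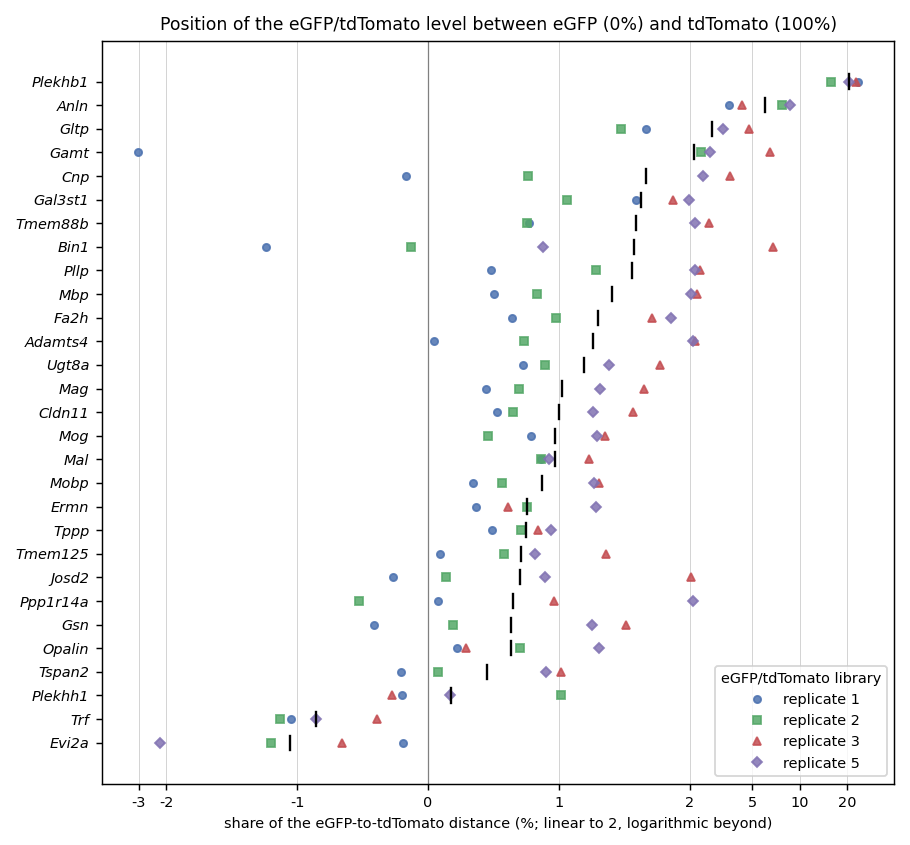
Share of the eGFP-to-tdTomato distance at which each of 29 genes lay in each eGFP/tdTomato library, on an axis that is linear up to 2% and logarithmic beyond, with a black tick for the share of the mean. Most ticks lie between 0 and 2%, Plekhb1 and Anln lie to the right, and replicates 3 and 5 lie to the right of replicates 1 and 2 for most genes.

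The highest shares were those of Plekhb1 (20.7%), Anln (6.05%), Gltp (2.79%), Gamt (2.12%) and Cnp (1.66%). Their SDs over the 4 eGFP/tdTomato libraries were 3.46, 2.51, 1.54, 3.91 and 1.69 percentage points in that order. Gal3st1 (1.63%), Tmem88b (1.59%) and Bin1 (1.58%) followed closely, so the order of Gamt, Cnp and these genes lay within the spread. The lowest shares were those of Evi2a (-1.06%), Trf (-0.86%), Plekhh1 (0.18%), Tspan2 (0.45%) and Opalin (0.63%). Among genes of abundant myelin proteins, the share was 1.66% for Cnp, 1.40% for Mbp, 1.03% for Mag, 1.00% for Cldn11, 0.97% for Mog and 0.87% for Mobp. The SD of these shares over the 4 eGFP/tdTomato libraries ran from 0.42 percentage points for Mog to 1.69 for Cnp. By role, the median share was 0.97% for membrane and adhesion proteins, 1.46% for lipid genes, 0.75% for cytoskeletal genes and 0.98% for the metabolic group. Across the 29 genes the share had a Spearman's rho of 0.219 with the tdTomato level per kilobase and of 0.133 with the eGFP level as a percentage of tdTomato. These are descriptions over genes measured in the same libraries, and the levels enter the share itself.

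The share differed between the 4 double-reporter libraries by more than the distance between its quartiles over genes. Its median over the 29 genes was 0.366% in replicate 1, 0.737% in replicate 2, 1.65% in replicate 3 and 1.31% in replicate 5. Replicate 1 was the lowest library for 19 of the 29 genes and replicate 3 the highest for 19. Reads outside genes made up 36.4, 42.5, 25.6 and 35.5% of these libraries in the same order, and the part of this in the shares was not tested. Leaving out single libraries moved the median share between 0.663% (without eGFP/tdTomato replicate 3) and 1.16% (without eGFP/tdTomato replicate 1).

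Exceptions to the pattern were 7 genes of which the eGFP fraction held at least 10% of the tdTomato level. These were Cntn2 (164%), Car2 (130%), Qdpr (81.6%), Cryab (72.9%), Aspa (61.7%), Plekhb1 (18.7%) and Gamt (10.3%). Just under the limit was Anln with 8.01%. In the median gene of the 34, the tdTomato level was 69.5 times the eGFP level, and this ratio ran from 0.608 for Cntn2 to 753 for Mag.

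Car2 (ENSMUSG00000027562, GRCm38 chromosome 3, 14886273 to 14900770, plus strand), a cytosolic carbonic anhydrase known from both oligodendrocytes and astrocytes, was highest with both reporters. It was at 287, 574, 565 and 413 CPM in the eGFP libraries, 1162, 790.0, 774 and 1107 CPM with both reporters and 343, 304, 336 and 429 CPM in tdTomato. Every eGFP/tdTomato library lay above every library of the other fractions, whose ranges overlapped. Car2 was 2.72-fold higher with both reporters than in tdTomato (1.44 ± 0.24, adjusted p = 0.000193, edgeR), and this held in every alternative. It was 2.08-fold higher than in eGFP (1.06 ± 0.23, adjusted p = 0.0223), a call lost without any of 5 single libraries (adjusted p up to 0.194). It also lost this call with only the 2 groups in the fit (adjusted p = 0.0617) and without the 3 libraries numbered 5 (0.269). Between tdTomato and eGFP it was not called (-0.38 ± 0.23, adjusted p = 0.205), though with scaling by library size alone it was lower in tdTomato (adjusted p = 0.0256).

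Plekhb1, a membrane-associated protein with a pleckstrin homology domain, was at 176, 253, 239 and 233 CPM in eGFP, 457, 381, 448 and 426 CPM with both reporters and 1212, 1146, 1427 and 1024 CPM in tdTomato. The 3 fractions formed separate steps with little spread within each. It rose 1.9-fold from eGFP to eGFP/tdTomato (0.93 ± 0.17, adjusted p = 0.00662, edgeR) and was 2.81-fold lower than in tdTomato (adjusted p = 6.01e-06). The first call was lost without eGFP/tdTomato replicate 3 (adjusted p = 0.079), without eGFP replicate 5 (0.0658) and without the libraries numbered 5 (0.0844).

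Aspa, the aspartoacylase that frees acetate from N-acetylaspartate, was at 64.9, 91.2, 77.3 and 74.8 CPM in eGFP, 112, 97.3, 111 and 100.3 CPM with both reporters and 114, 95.5, 151 and 139 CPM in tdTomato. Its eGFP/tdTomato libraries lay above all eGFP libraries and within reach of the tdTomato range. Aspa was 1.62-fold higher in tdTomato than in eGFP (0.70 ± 0.18, adjusted p = 0.00555, edgeR), with no call in the other comparisons. Without eGFP replicate 1 it was called lower in eGFP/tdTomato than in tdTomato (adjusted p = 0.0304).

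Qdpr, the reductase that regenerates the biopterin cofactor, was at 49.9, 89.6, 87.6 and 79.1 CPM in eGFP, 69.8, 64.3, 72.9 and 68.1 CPM with both reporters and 93.4, 96.3, 106 and 79.9 CPM in tdTomato. Cryab, a small heat shock protein, was at 86.9, 137, 108 and 109.7 CPM in eGFP, 118, 126, 119 and 116 CPM with both reporters and 128, 132, 205 and 142 CPM in tdTomato. Neither was called in any comparison of the main fit. For both genes the eGFP range overlapped that of the other fractions while every tdTomato library lay above every eGFP/tdTomato library. Without eGFP replicate 1, both were called lower in eGFP/tdTomato than in tdTomato (adjusted p = 0.000932 for Qdpr and 0.00917 for Cryab) and Cryab higher in tdTomato than in eGFP (adjusted p = 0.0248). DESeq2 made the same 3 calls (adjusted p = 0.00963, 0.0469 and 0.0179). It was 1 of 9 alternatives other than single libraries left out. Over these 9, Qdpr was called lower in eGFP/tdTomato than in tdTomato in 6 and Cryab in 4. Cryab was called higher in tdTomato than in eGFP in 5 and Qdpr in 1. Over the 12 fits without a single library, these counts were 3, 1, 4 and 0.

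Gamt, an enzyme of creatine synthesis, was at 12.5, 14.5, 23.9 and 19.8 CPM in eGFP, 13, 21.3, 27.7 and 21.9 CPM with both reporters and 190.4, 133, 205 and 160.0 CPM in tdTomato. It was 8.21-fold lower with both reporters than in tdTomato (adjusted p = 2.82e-07, edgeR), and its eGFP-bearing fractions overlapped. Cntn2, a contactin of the axon and glia contact zone that neurons also make, was low throughout, at 8.42, 2.03, 0.828 and 0.641 CPM in eGFP, 1.33, 2.03, 0.527 and 2.26 CPM with both reporters and 1.96, 0.993, 2.23 and 2.07 CPM in tdTomato. Its eGFP mean rested on replicate 1, without which its log2 difference between tdTomato and eGFP changed sign, from -0.71 to 0.79, with no call either way.

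**Figure D4:**
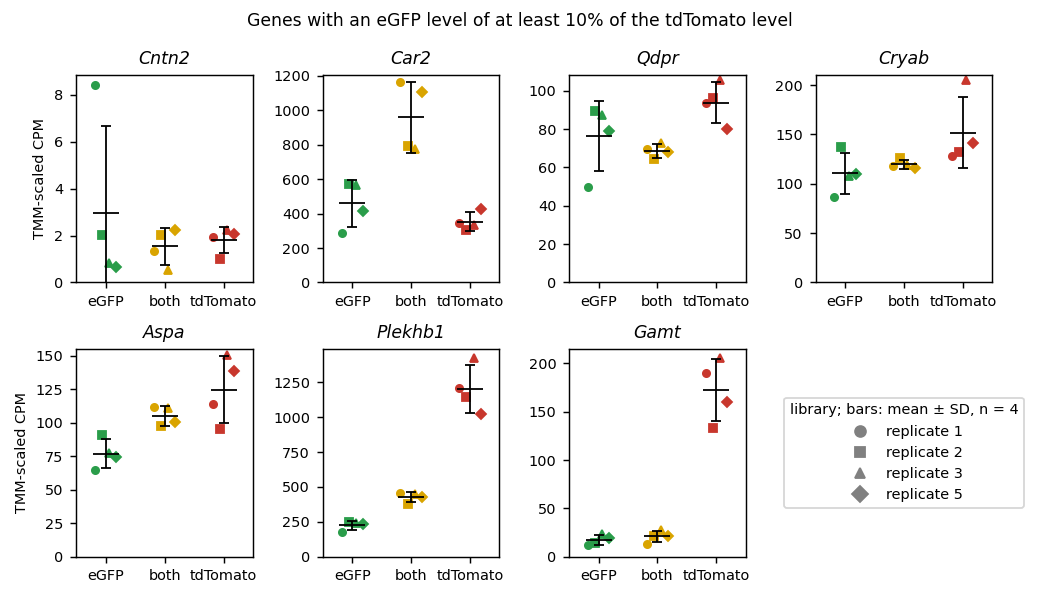
TMM-scaled CPM of the 7 genes with an eGFP mean of at least 10% of the tdTomato mean, a point per library and bars of mean ± SD (n = 4), with the eGFP/tdTomato fraction in the middle of each panel as "both". Car2 peaks with both reporters, Plekhb1 climbs in steps, and Gamt is highest in tdTomato.

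Other genes of the lineage were read from lists that were likewise drawn up with earlier results known. Of all genes tested, 14.9% were higher and 20.4% lower in tdTomato than in eGFP. The shares were 16.8% higher and 12.4% lower in eGFP/tdTomato than in tdTomato, and 0.814% higher and 1.67% lower in eGFP/tdTomato than in eGFP. These shares stand beside the counts of every list below. Of 30 further myelin and oligodendrocyte genes, 25 were higher in tdTomato than in eGFP, 25 were lower and 1 was higher in eGFP/tdTomato than in tdTomato, and 6 were higher and 1 was lower in eGFP/tdTomato than in eGFP. Their summed level was 1992 to 2874 CPM in eGFP, 1999 to 2678 with both reporters and 20709 to 30832 in tdTomato. Unlike the sum of the members, it overlapped between the eGFP-bearing fractions. The gene higher with both reporters than in tdTomato was Jph4, a junctophilin, and the gene lower with both reporters than in eGFP was Enpp2, a secreted enzyme that makes lysophosphatidic acid, both named after their values were seen. Elovl7, an enzyme that lengthens fatty acids, rose 2.89-fold between the eGFP-bearing fractions, and Nfasc, an adhesion protein, rose 2.67-fold. Of 10 myelin transcription factors, 10 were higher in tdTomato than in eGFP and 9 were lower in eGFP/tdTomato than in tdTomato. Between the eGFP-bearing fractions 4 of the 10 rose, namely Sox10 (8.55-fold), Nkx2-2 (4.94-fold), Olig1 (3.64-fold) and Zfp488 (3.62-fold). Myrf itself, at 4.45 ± 3.27 CPM in eGFP, 11.5 ± 4.08 CPM with both reporters and 497 ± 144 CPM in tdTomato (mean ± SD, n = 4), was not called between them (adjusted p = 0.122, edgeR).

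Of 15 genes of differentiating oligodendrocytes, 15 were higher in tdTomato than in eGFP and 15 were lower in eGFP/tdTomato than in tdTomato. Between the eGFP-bearing fractions 4 rose, namely Gpr17, a receptor of committed precursors (12.7-fold), Enpp6, a choline phosphodiesterase (9.36-fold), Bcas1, an early myelin-associated protein (5.46-fold), and Bmp4, a secreted ligand (4.55-fold), and 1, the zinc transporter gene Tmem163, named after its value was seen, fell (3.13-fold lower, adjusted p = 0.0266, edgeR). The median share was 1.99% over the 15 differentiating genes, 2.10% over the 10 transcription factors and 1.23% over 22 of the further myelin genes, beside 1.00% over the 29 members. Olig1 and Nkx2-2 had shares of 55.9 and 21.6%. Within every eGFP/tdTomato library the median of the differentiating genes was above that of the members (0.990, 1.01, 2.69 and 2.67% against 0.366, 0.737, 1.65 and 1.31%). The same held for the transcription factors (1.45, 1.77, 3.18 and 3.59%) and for the further myelin genes (0.689, 0.892, 2.05 and 1.95%). It was thus not particular to the differentiating genes, and these differences were not tested.

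Progenitor genes were mixed. Of 12, 8 were higher and 1 was lower in tdTomato than in eGFP, 7 were lower and 1 was higher in eGFP/tdTomato than in tdTomato, and 0 were called either way between the eGFP-bearing fractions. Ptprz1, a receptor tyrosine phosphatase that astrocytes also make, was the gene that went the other way in both comparisons with tdTomato. Of all genes tested, 20.4% were lower in tdTomato than in eGFP and 16.8% higher in eGFP/tdTomato than in tdTomato, so 1 of 12 is not more than that. Of the 16 astrocyte genes, 16 were lower in tdTomato than in eGFP, 16 were higher in eGFP/tdTomato than in tdTomato, and 2, Acsbg1, an acyl-CoA synthetase, and Gjb6, a connexin of astrocytes, were higher in eGFP/tdTomato than in eGFP.

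Some of the 34 genes are also made by Schwann cells, the myelinating cells of peripheral nerve. Leaving out Sox10, which oligodendrocytes also make, the sum of 9 Schwann cell genes was 94.3 to 131 CPM in eGFP, 93.1 to 121 with both reporters and 32.2 to 41.8 in tdTomato. It was lowest in tdTomato, and none of its genes was at 0 in all libraries of a fraction. With Sox10 the sum was 97.6 to 132, 100 to 135 and 405 to 685 CPM in the same order. With Sox10 included, 9 genes of this list were tested, of which 2 were higher and 5 lower in tdTomato than in eGFP. Of all genes tested, 14.9% were higher and 20.4% lower. The part of Schwann cells in the levels of the 34 genes was not tested. Mural and fibroblast genes (10) summed to 787 to 2094 CPM in eGFP, 357 to 569.7 with both reporters and 8.55 to 18.3 in tdTomato. Ependymal genes (10) summed to 248 to 545 CPM in eGFP, 16.4 to 26.4 with both reporters and 2.86 to 6.53 in tdTomato. Microglial genes (10) summed to 89.2 to 1044 CPM in eGFP, 33.0 to 44.9 with both reporters and 21.8 to 45.3 in tdTomato. These 3 sums were highest in the fraction where the myelin genes were lowest, and their part in the differences between the eGFP-bearing fractions was not tested. Endothelial genes (10) summed to 120.2 to 209.04 CPM in eGFP, 66 to 83.2 with both reporters and 68 to 114 in tdTomato. Red cell genes (7) summed to 57.0 to 101 CPM in eGFP, 45.3 to 84.4 with both reporters and 30.5 to 133 in tdTomato, with overlap throughout. Neuronal genes (12) summed to 67.6 to 87.7 CPM in eGFP, 46.4 to 73.1 with both reporters and 454 to 682 in tdTomato. Elavl3, singled out after its values were seen, carried most of the tdTomato sum, and without it the other 11 summed to 64.1 to 82.8, 38.4 to 62.5 and 71.8 to 100.04 CPM.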

How the data were processed

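Gene-level read counts were measured in 12 sorted spinal cord libraries, 4 per fraction. The deposited values are whole-number counts per Ensembl gene, made by the authors with STAR and HTSeq on GRCm38 (mm10), per the submitters' processing notes; versions, strand setting and annotation are not given in the sources used here. Gene symbols, exon lengths and overlaps came from GENCODE M21, and upstream sequences from RefSeq (GRCm38.p6). The 34 members and all gene lists were chosen with earlier results of these data known.

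Lines that name no gene were left out of library sizes; reads outside genes made up 21.2 to 57.1% of a library. Genes were filtered with filterByExpr, scaled by the trimmed mean of M values (TMM) and tested with edgeR 4.0.16 (R 4.3.3, limma 3.58.1) by the quasi-likelihood F-test on group alone, fitted to all 12 libraries, with Benjamini-Hochberg adjustment over 29361 genes and a threshold of 0.05. Gene counts of 12564767 to 36505583 per library mean that 1 CPM rests on more than 10 reads in every library before scaling. The labels do not say what libraries of the same number share, and the numbers were not used as pairs in this fit. The alternatives were DESeq2 (1.42.0), other scalings and filters, the replicate number as a block, only the groups compared, each library left out in turn and, chosen after seeing the data, the 3 libraries numbered 5 left out.

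Values in every library are given for members with the 5 highest and 5 lowest shares, all members with an eGFP mean of at least 10% of the tdTomato mean, and the 3 most abundant per kilobase of each role group in tdTomato. Of each other list at most 4 genes are named, those with the largest log2 fold changes whose higher group averaged 5 CPM or more. Other names are marked as chosen after their values were seen, apart from Myrf, the factor whose letters were searched near the start sites.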

Additional observations from a re-analysis of the deposited data

Results flagged for a closer look

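Each gene's 4 libraries per fraction, 102 groups in all, were checked for a library far from the other 3, by the gap to its nearest neighbour relative to the whole range (Dixon's test). Chance alone flags about 1 in 20 groups, and 4 were found, all in the tdTomato fraction. Cnp was at 16558 CPM in tdTomato replicate 3, where the other 3 libraries lay between 10292 and 11335. Ugt8a was at 5430.3 CPM in the same library, against 3839 to 4006 in the others. Tmem88b was at 796 CPM there, against 446 to 506. Plekhh1 stood apart on the low side, with 80.7 CPM in tdTomato replicate 2 against 163 to 176.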

How the results depend on the processing

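The 30 calls between eGFP/tdTomato and tdTomato held in every alternative, as did 29 of the 30 between tdTomato and eGFP. Leaving out each library in turn, 8 to 13 members were higher and 0 lower in eGFP/tdTomato than in eGFP, 29 to 32 were lower and 1 higher in eGFP/tdTomato than in tdTomato, 30 to 31 were higher and 0 lower in tdTomato than in eGFP, and the median share was 0.663 to 1.16%. In those fits 103 to 475 of all genes tested were higher in eGFP/tdTomato than in eGFP. Without the 3 libraries numbered 5, 5 members were higher in eGFP/tdTomato than in eGFP, beside 60 of 29418 genes. With only the 2 groups compared that count was 8, beside 163 of 27941 genes, and with DESeq2 it was 16, beside 546 of 19722. With library size alone, 1 member, Car2, was lower in tdTomato than in eGFP. On the log2(CPM + 0.5) scale the median share was 17.3%, and a limit of 5% gave 12 exceptions. The libraries' numbers were also tried as a block. With the replicate block 16 members were higher in eGFP/tdTomato than in eGFP, beside 566 of 29361 genes. Adamts4, Tppp, Gal3st1 and Ermn gained a call there (adjusted p = 0.00657, 0.00864, 0.0131 and 0.0186, edgeR). In the same fit 29 members were lower in eGFP/tdTomato than in tdTomato, beside 4133 genes, and 31 were higher in tdTomato than in eGFP, beside 5039. Same-numbered libraries correlated between -0.226 and 0.596 in their deviations from the group means, over 0.1 in 8 of 12 pairs. Libraries of different numbers correlated between -0.658 and 0.566. Of 24 best matches, each among the 4 libraries of another fraction, 10 were with the same number. These values do not settle whether same-numbered libraries belong together, and the labels do not say what they share. The main fit therefore used group alone.

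The log2 differences that changed sign were all uncalled. Between eGFP/tdTomato and eGFP, Plekhh1 (0.08) was at -0.18 with library size alone, -0.012 with at least 1 CPM in 4 libraries, -0.044 with protein-coding genes, -0.037 with only the 2 groups and -0.015 without the libraries numbered 5, and Evi2a (-0.31) was at 0.31 without the latter. Leaving out single libraries gave -0.049 to 0.30 for Plekhh1 (below 0 without eGFP/tdTomato replicate 2, eGFP replicate 3 or eGFP replicate 5), -0.65 to 0.16 for Evi2a (above 0 without eGFP replicate 5), -1.26 to 0.31 for Cntn2 (above 0 without eGFP replicate 1), -0.086 to 0.39 for Bin1 (below 0 without eGFP/tdTomato replicate 3) and -0.047 to 0.25 for Cryab (below 0 without eGFP replicate 1). With library size alone Cryab (0.12) was at -0.086 and Josd2 (0.16) at -0.073. Between tdTomato and eGFP, Cntn2 (-0.71) ran from -0.99 to 0.79 (above 0 without eGFP replicate 1), and Qdpr (0.29) was at -0.016 with library size alone. The cause was not tested. Levels under 1 CPM, such as those of Opalin and Pllp in eGFP, rest on few reads.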
